A study of Mus musculus with 4 samples.

Results

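The TRAV16 family of TCRα variable segments was followed in splenic CD4 T cells of wild type (WT) and Tet2/3 DKO mice. Its members were the clones whose best-scoring V segment was named TRAV16, TRAV16N or TRAV16D-DV11, and they made up 5910 of 189388 TCRα clones and 29017 of 871808 TCRα reads (3.33%). A clone here is a distinct sequence from the first framework region (FR1) to the fourth, with the number of reads that carry it. They were chosen by this V assignment and, as a family, for the number of clone sequences shortened inside the V exon, so the level of that loss is given as a description without a test. TRAV16N held 4775 clones and TRAV16D-DV11 held 1135. No clone listed TRAV16 itself at any rank, and 0 reads allow a share of up to 0.00104% to 0.00174% of the reads of a library. Whether reads from that gene carry the name of another copy cannot be told apart from its absence.

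Total CD4 T cells were sorted from the spleen as TCRβ+ and CD25-, without invariant natural killer T cells, from 2 WT and 2 Tet2/3 DKO mice with an average age of 25 days. Tet2/3 DKO mice were Tet2-/- Tet3 flx/flx CD4Cre: TET2 was missing from the germline and TET3 was removed by a Cre recombinase that CD4-expressing cells make, which begins in the thymus. TET2 and TET3 oxidise 5-methylcytosine in DNA and promote its demethylation. TCR SMART-seq, a 5′-RACE method that copies complete TCR variable regions from total RNA, gave 172506 and 216457 TCRα reads in WT, against 195046 and 287799 in Tet2/3 DKO. The clone tables hold no transcripts other than TCR chains, so the cell type could not be checked against its marker genes here. Because RNA was counted, fewer cells with a chain and less RNA of that chain per cell cannot be told apart.

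A TCRα chain is encoded by 1 V segment joined to 1 TRAJ segment and to the constant gene, and the join forms CDR3, the loop that contacts the peptide. The framework regions (FR) hold the fold of the variable domain, and CDR1 and CDR2 are its other binding loops. In the mouse a large part of the TRAV cluster is present in duplicated copies, marked D and N, so that a family such as TRAV16 has nearly identical members far apart on the chromosome. TRAJ segments are numbered downwards from the end next to the V cluster to the end next to the constant gene. Both alleles can rearrange in 1 cell, rearrangement can continue to further V and TRAJ segments, and a transcript whose reading frame is broken by the join cannot make a chain.

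In RefSeq (GRCm38.p6) all 3 genes are V segments on mouse chromosome 14. Trav16d-dv11 lies at chr14:53047287-53047821, Trav16n at chr14:53351090-53351621 and Trav16 at chr14:53743174-53743705, and the annotation used here gives no exon boundaries for them. The name Trav16n is also listed there as a synonym of Trav16. Reads of the family fell into 3 nearly identical sequence types over the first 280 nt of the clone, counted from position 1 at the first base of FR1. They are printed because the missing stretch and the bases that separate the types can be read in them, and capitals mark the stretch that most deleted clones lacked.
TRAV16N-ref: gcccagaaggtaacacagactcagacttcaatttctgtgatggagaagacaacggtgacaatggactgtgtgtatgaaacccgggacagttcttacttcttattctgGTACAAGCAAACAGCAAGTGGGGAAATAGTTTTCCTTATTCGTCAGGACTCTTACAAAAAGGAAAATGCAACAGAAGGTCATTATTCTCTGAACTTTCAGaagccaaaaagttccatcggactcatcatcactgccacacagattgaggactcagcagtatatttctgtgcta
TRAV16N-var: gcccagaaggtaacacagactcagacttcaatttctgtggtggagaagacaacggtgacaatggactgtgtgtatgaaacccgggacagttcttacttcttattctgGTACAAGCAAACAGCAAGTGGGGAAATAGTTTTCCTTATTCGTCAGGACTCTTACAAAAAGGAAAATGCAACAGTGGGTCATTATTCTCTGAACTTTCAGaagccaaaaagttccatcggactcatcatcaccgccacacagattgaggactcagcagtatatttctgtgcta
TRAV16D-type: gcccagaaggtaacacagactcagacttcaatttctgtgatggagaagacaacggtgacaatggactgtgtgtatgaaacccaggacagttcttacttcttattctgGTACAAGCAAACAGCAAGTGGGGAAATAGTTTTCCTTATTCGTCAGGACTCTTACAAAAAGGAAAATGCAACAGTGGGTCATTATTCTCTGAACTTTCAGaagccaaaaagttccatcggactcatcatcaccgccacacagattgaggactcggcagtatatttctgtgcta

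The type called TRAV16N-ref held 1225 clones and 19.0% of the family's reads, and 81.1% of its 1148 intact clones had no mismatch to the TRAV16N reference of the aligner. TRAV16N-var held 3463 clones and 63.6% of the reads, of which 3425 clones were named TRAV16N and 38 TRAV16D-DV11. None of its 2776 intact clones matched the reference of the aligner without a mismatch. TRAV16D-type held 1069 clones, all named TRAV16D-DV11, and 16.5% of the reads. A further 153 clones could not be assigned to a single type from the positions that separate the types. TRAV16N-var differed from TRAV16N-ref by A40G, A182T, A183G and T240C, with the base of TRAV16N-ref first. TRAV16D-type differed from TRAV16N-ref by G83A, A182T, A183G, T240C and A261G, and from TRAV16N-var by 3 of the 280 positions. The label TRAV16N therefore covered 2 types. Which gene each type comes from was not tested, and the types were drawn after the reads had been seen, so differences between them are given as descriptions.

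A V deletion, meaning at least 20 nt missing inside the V part with matching sequence on both sides, was found in 986 family clones with 4409 reads. A single class made up 963 of these clones and 97.5% of their reads. It lacked 100 nt, from position 108 to position 207, starting with GT and ending with AG. The same clones fit equally well with the stretch placed 1 nt earlier, and the placement with GT and AG ends is the one used here. The stretch held 43 of the 51 nt of FR2, all 24 nt of CDR2 and 33 of the 99 nt of FR3, and left FR1, CDR1 and the V-J join in place. Since 100 is not a multiple of 3, the join shifted the frame and made a TGA stop codon in 963 of 963 clones, which was the first stop, at codon 36, in 960 of them. The V part of the most abundant deleted clone of the commonest type shows the new stop in capitals.
TRAV16N-var, deleted clone: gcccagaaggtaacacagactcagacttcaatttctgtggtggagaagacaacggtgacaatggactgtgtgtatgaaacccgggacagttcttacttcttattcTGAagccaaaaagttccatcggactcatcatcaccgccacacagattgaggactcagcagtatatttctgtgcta

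The bases directly before the missing stretch were the same in the 3 types, and 2 of the positions that separate them lay inside its 3′ end. Positions 182 and 183 are 25 and 24 nt before the last missing base. They are shown in capitals, in a window that runs on past the end of the stretch.
TRAV16N-ref, 3′ end of the stretch: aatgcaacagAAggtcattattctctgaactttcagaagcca
TRAV16N-var, 3′ end of the stretch: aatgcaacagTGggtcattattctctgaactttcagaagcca
TRAV16D-type, 3′ end of the stretch: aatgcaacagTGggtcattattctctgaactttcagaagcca

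The next classes were rare. A gap from 68 to 207 (140 nt) was found in 9 clones, a gap from 108 to 181 (74 nt) in 4, a gap from 72 to 207 (136 nt) in 3 and a gap from 21 to 50 (30 nt) in 4. All but the last of these started with GT and ended with AG, and 3 of the 5 classes ended at position 207. Such ends were present in 99.5% of the deleted reads of the family. Near the minimum length, 1 clone with 24 nt missing was counted as deleted and 26 further short clones without a single gap were not. The search could return no start before position 21, so the true start of the gap from 21 to 50 is uncertain.

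**Figure D1:**
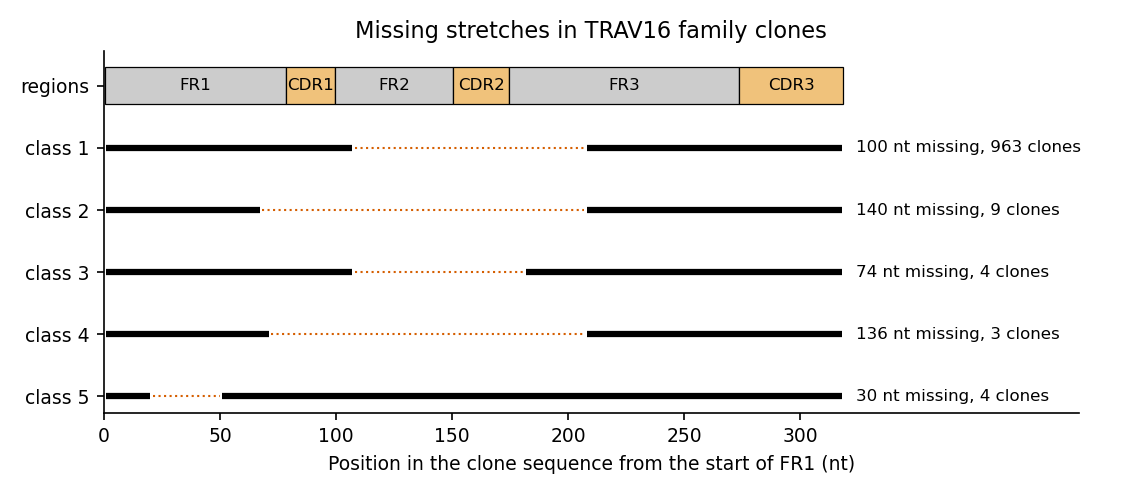
Map of the 5 commonest missing stretches in TRAV16 family clones, to scale in nucleotides from the start of FR1, under the V regions of the reference clone; solid lines are sequence present and dotted lines sequence missing. The 100 nt class with 963 clones runs from FR2 through CDR2 into FR3.

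Deleted clones took a smaller share of the family's reads in both Tet2/3 DKO libraries than in both WT libraries. For the family they held 20.9% of reads in WT replicate 1, 18.8% in WT replicate 2, 13.8% in Tet2/3 DKO replicate 1 and 11.03% in Tet2/3 DKO replicate 2. The means were 19.8% ± 1.53 (SD, n = 2) in WT and 12.4% ± 1.96 (SD, n = 2) in Tet2/3 DKO. The groups did not overlap, and the exact two-sided permutation test gave p = 0.333, which is the smallest p that 2 against 2 libraries allow. Of the 42 TRAV segments with enough deleted and intact reads to be tested, 26.2% had both Tet2/3 DKO libraries below both WT libraries, so the order itself was common among segments.

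TRAV16N had a deleted share of 19.6% and 17.1% of reads in WT, against 12.9% and 10.3% in Tet2/3 DKO. TRAV16D-DV11 had 28.3% and 25.4% in WT, against 18.4% and 14.5% in Tet2/3 DKO. In each library the share was higher for TRAV16D-DV11, and TRAV16N minus TRAV16D-DV11 ran from -8.66 to -4.22 percentage points. Counted by clones, this difference was smaller and ran from -3.76 to -1.71 points. In a fit across all 42 segments on reads, edgeR's quasi-likelihood test gave a log2 ratio of deleted to intact reads, Tet2/3 DKO over WT, of -0.78 (SE 0.72) for TRAV16N and -0.90 (SE 0.81) for TRAV16D-DV11. Both had an adjusted p of 0.893. No segment was called (0.0% of 42), and 1 had an unadjusted p under 0.05.

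With each clone counted once instead of by its reads, 21.9% and 17.7% of WT TRAV16N clones were deleted, against 13.5% and 13.2% of Tet2/3 DKO clones. It fell by 0.68 on the log2 scale (SE 0.19, edgeR adjusted p = 0.00755), and TRAV16D-DV11 had a log2 ratio of -0.72 (SE 0.32, adjusted p = 0.168). By clones 13.6% of the 22 segments tested were called, so 1 of the 2 members stood among 3 called segments. By clones 33.3% of 42 segments had both Tet2/3 DKO libraries below both WT libraries. Outside the family 2.64% and 2.27% of WT clones were deleted, against 2.12% and 1.59% of Tet2/3 DKO clones. For TRAV6-6 it was 21.9% and 20.5% of WT clones, against 15.5% and 14.7% of Tet2/3 DKO clones. By reads over those same 22 segments TRAV16N was not called (log2 ratio -0.78, SE 0.38, adjusted p = 0.547).

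By sequence type, the deleted share in WT replicate 1, WT replicate 2, Tet2/3 DKO replicate 1 and Tet2/3 DKO replicate 2 was 8.65%, 4.13%, 4.82% and 4.66% of reads for TRAV16N-ref. For TRAV16N-var the same 4 libraries gave 22.9%, 20.7%, 16.2% and 11.9%. For TRAV16D-type they gave 29.3%, 26.0%, 18.8% and 15.1%. TRAV16N-ref was the lowest type in each library, and the 2 types that share TG at positions 182 and 183, and also C at position 240, were the higher ones. The genotypes did not overlap for TRAV16N-var and TRAV16D-type, but they did for TRAV16N-ref, where WT replicate 2 was below every other library.

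**Figure D2:**
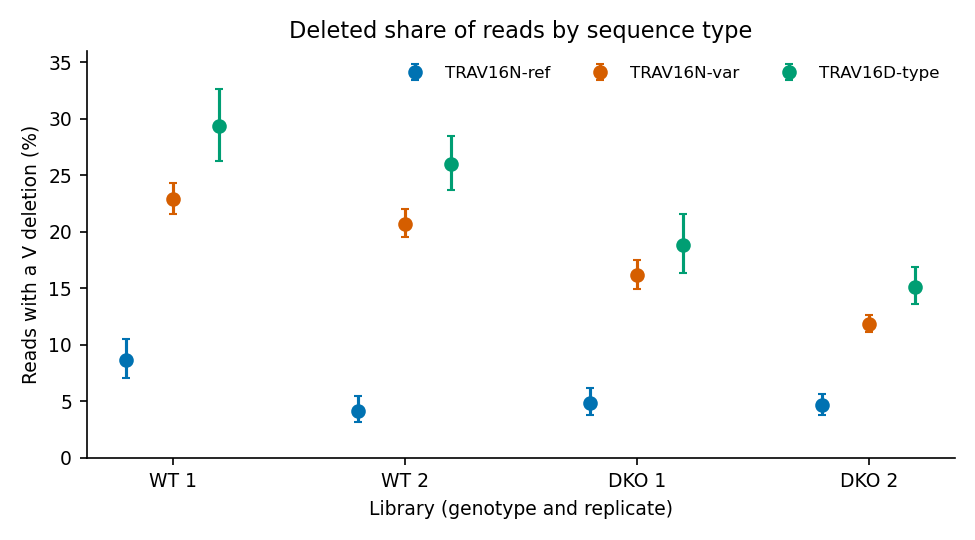
Share of reads with a V deletion (%) for the 3 sequence types in each library, with 95% Wilson intervals as bars. TRAV16N-ref lies between 4.13% and 8.65% and TRAV16D-type between 15.1% and 29.3%.

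Deleted clones were more frequent among rearrangements whose join cannot make a chain. The V-J join of a deleted clone can still be read from its CDR3 nucleotides, and joins were divided into in-frame ones and those out of frame or with a stop codon. Of the in-frame joins, 18.3% and 14.0% of WT clones and 11.4% of clones in each Tet2/3 DKO library were deleted. Of the other joins, 47.8% and 45.4% of WT clones were deleted, against 30.8% and 29.7% of Tet2/3 DKO clones. The deleted share was higher among out-of-frame joins in 4 of 4 libraries.

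The same order held in each sequence type and library. For TRAV16N-var the deleted share was 13.9% to 21.9% of in-frame and 30.9% to 53.2% of out-of-frame joins. For TRAV16D-type it was 10.2% to 20.8% and 31.5% to 61.3%. For TRAV16N-ref it was 3.74% to 7.28% of in-frame joins, and among its 20 to 47 out-of-frame joins a library it ran from 2 of 20 clones to 24.3%. Outside the family the deleted share of TCRα clones was 1.17% to 1.94% of in-frame and 4.20% to 6.76% of out-of-frame joins, so the order was not confined to TRAV16.

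**Figure D3:**
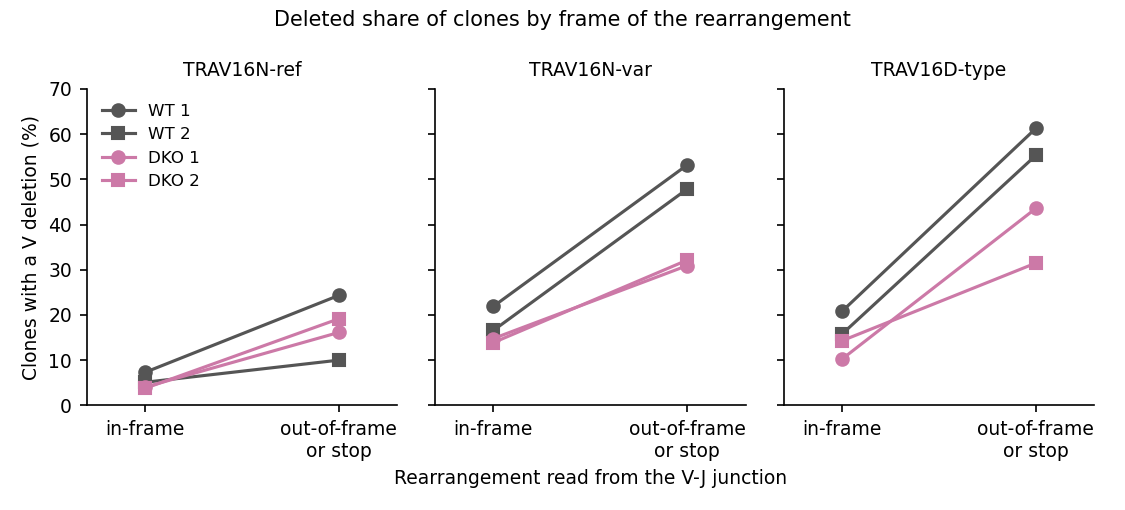
Share of clones with a V deletion (%) among in-frame joins and among joins out of frame or with a stop codon, 1 panel per sequence type and 1 line per library. All 12 lines rise from left to right, and in TRAV16N-var and TRAV16D-type the WT lines end highest.

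Deleted and intact forms of the same rearrangement were seldom found together. A rearrangement was taken as the sequence type, the TRAJ segment and the CDR3 nucleotides within a library, and 825 of 5186 included a deleted clone. Of these, 141 (17.1%) also had an intact clone in the same library. The share with both forms was 23.2% of 569 in-frame rearrangements and 3.52% of 256 others. The median clone had 3 or 4 reads, deleted and intact alike, so a second form may have been missed at this depth. Among 95 rearrangements with at least 20 intact reads, 92 of them in-frame, 32 had a deleted form as well, with 6.68% of their 5837 reads deleted. Per library 8.79% and 12.2% of these reads were deleted in WT, against 29 of 580 reads and 5.30% in Tet2/3 DKO, where 1402 of the 3626 reads of replicate 2 came from its largest rearrangement. The minimum of intact reads itself favours rearrangements with a low deleted share, so these values are not comparable with those of the family.

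Because a deleted clone has no CDR3 in the deposited tables (9 of 986 had one), the deletion sets the family's in-frame share. In-frame clones without a stop held 74.1% and 75.2% of family reads in WT, against 79.3% and 82.2% in Tet2/3 DKO. The difference of 6.06 percentage points had an exact permutation p of 0.333, the smallest possible. With intact clones only, the shares were 93.3% and 92.6% in WT, against 91.7% and 92.3% in Tet2/3 DKO, so the direction turned, with a difference of -0.937 points (exact permutation p = 0.333). Between the copies, the in-frame share was higher for TRAV16N than for TRAV16D-DV11 in 4 of 4 libraries, by 8.72 points on average (SD 2.85). Deleted clones enter this share as not in-frame and the family was chosen for them, so it is given without a test. With intact clones only it was higher in 4 of 4 libraries by 3.36 points (SD 0.974). This did not hold for each sequence type, as TRAV16N-ref was below TRAV16D-type in WT replicate 1 (91.3% against 92.7%) and in Tet2/3 DKO replicate 2 (90.7% against 91.4%).

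TRAJ partners set the copies apart in the same direction in all 4 libraries. The read-weighted mean TRAJ number was 30.1, 29.3, 30.6 and 30.03 for TRAV16N in WT replicates 1 and 2 and Tet2/3 DKO replicates 1 and 2, and 23.6, 23.6, 21.8 and 20.8 for TRAV16D-DV11. TRAV16N was higher in 4 of 4 libraries, by 7.54 on average (SD 1.78), which means partners nearer to the V cluster (exact two-sided sign-flip permutation p = 0.125, the smallest that 4 libraries allow, adjusted p = 0.25 over 2 comparisons). For the family as a whole the mean was 28.6 ± 0.684 (SD, n = 2) in WT and 28.8 ± 0.467 (SD, n = 2) in Tet2/3 DKO, with an exact permutation p of 0.667. For TRAV16D-DV11 alone the genotypes did not overlap, with a Tet2/3 DKO minus WT difference of -2.37 (exact permutation p = 0.333, the smallest possible). Counted by clones, the difference was -1.09, again without overlap. It was -0.44 among intact clones, with overlap, and -4.45 among deleted clones, without overlap. Both Tet2/3 DKO libraries were below both WT libraries in the read-weighted mean for 26.8% of 97 TRAV segments.

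The mean TRAJ number of TRAV16N joined 2 distinct profiles. With each clone counted once, it was 44.4 to 45.3 over the 4 libraries for TRAV16N-ref, 25.4 to 26.1 for TRAV16N-var and 21.3 to 23.4 for TRAV16D-type. TRAJ38 and higher numbers took 73.6% to 79.3% of TRAV16N-ref clones, against 15.6% to 17.0% of TRAV16N-var and 12.03% to 15.4% of TRAV16D-type. Numbers below TRAJ20 took 1.07% to 2.45% of TRAV16N-ref clones, 28.1% to 29.3% of TRAV16N-var and 38.6% to 46.4% of TRAV16D-type. For all other TCRα clones TRAJ38 and higher took 26.5% to 27.8%. TRAJ numbers were not used to define the types, and for TRAJ38 and higher the range of TRAV16N-ref over the libraries lay apart from those of the other types.

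The largest partners of TRAV16N-ref by reads were TRAJ49 (12.8% ± 4.61, SD over 4 libraries), TRAJ56 (10.3% ± 3.27) and TRAJ57 (10.1% ± 0.840). Those of TRAV16D-DV11 were TRAJ21 (10.3% ± 2.56), TRAJ12 (8.48% ± 3.32) and TRAJ26 (6.16% ± 3.65). TRAV16N as labelled had TRAJ27 (6.24% ± 2.12), TRAJ31 (5.72% ± 1.83) and TRAJ30 (5.69% ± 7.64). For the family the first 5 were TRAJ27 (5.90% ± 1.69), TRAJ31 (5.79% ± 1.38), TRAJ21 (5.52% ± 1.01), TRAJ30 (5.197% ± 6.22) and TRAJ23 (5.08% ± 0.908). TRAJ30 stood out by its spread: it took 2.02%, 2.15% and 2.09% of family reads in the WT libraries and Tet2/3 DKO replicate 1 and 14.5% in Tet2/3 DKO replicate 2.

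**Figure D4:**
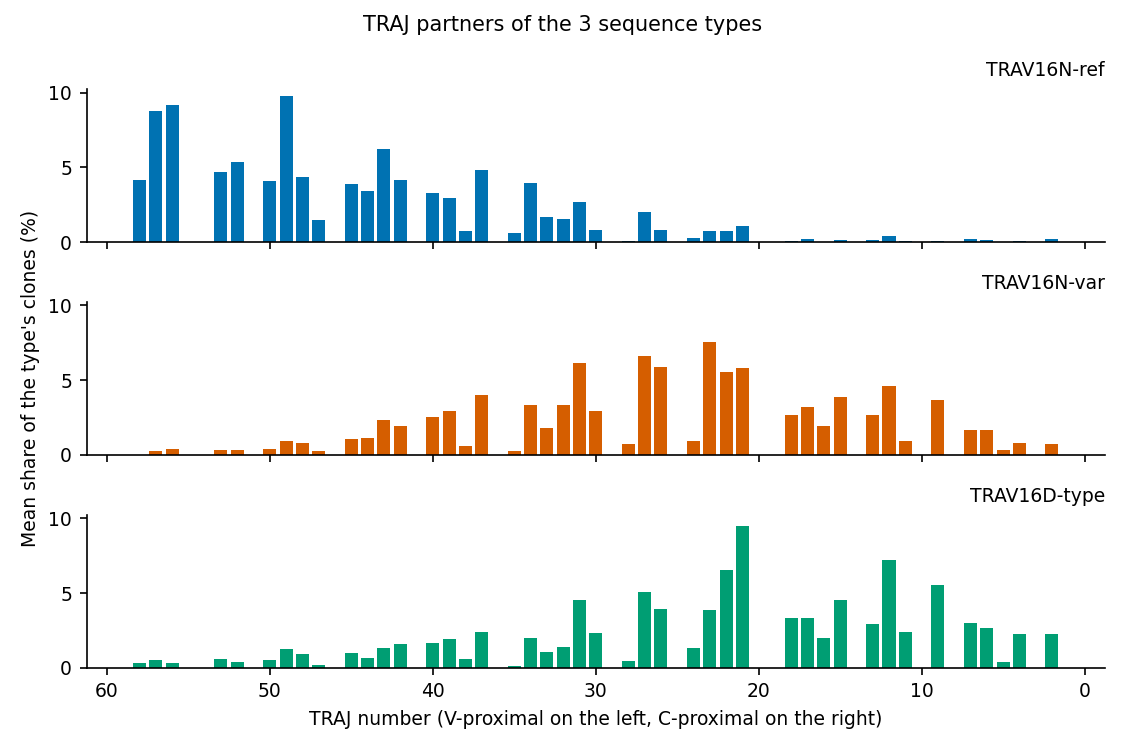
Mean share of the clones of each sequence type (%) by TRAJ number, averaged over the 4 libraries, from the V-proximal end on the left to the constant-region end on the right. TRAV16N-ref lies at the high numbers, TRAV16N-var in the middle and TRAV16D-type further to the right.

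The deleted share did not change in the same way at each TRAJ step in every library. For TRAV16N-var clones with TRAJ38 and higher, TRAJ20 to 37 and below TRAJ20, it was 28.6%, 29.4% and 20.3% in WT replicate 1 and 29.3%, 21.8% and 16.7% in WT replicate 2. In the same order it was 22.2%, 15.3% and 16.6% in Tet2/3 DKO replicate 1 and 14.8%, 17.6% and 14.4% in Tet2/3 DKO replicate 2. A fall at both steps was seen in WT replicate 2 alone, but the share was lower below TRAJ20 than at TRAJ38 and higher in each library. For TRAV16D-type, with the libraries pooled, it was 16.4%, 21.2% and 20.0% in the same order, and it too fell at both steps in WT replicate 2 alone. Within TRAJ38 and higher, where TRAV16N-ref is concentrated, it had 4.90% to 9.84% of clones deleted in the 4 libraries and TRAV16N-var had 14.8% to 29.3%. The types differed in their TRAJ partners within this range too (TRAV16N-ref had 111 clones with TRAJ56 and 105 with TRAJ57, against 13 and 8 of TRAV16N-var), so type and TRAJ partner were not separated here.

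No V-J pair of the family was called between genotypes. Of 84 TRAV16 pairs among the 3035 tested, 0 passed an edgeR adjusted p of 0.05 (0.0% of all pairs), and 5 had an unadjusted p under 0.05, as had 143 of all 3035. The pair with the smallest p was TRAV16N with TRAJ30, with a log2 fold change of 2.65 (SE 0.86, adjusted p = 0.995), and it rested on Tet2/3 DKO replicate 2. Without a filter on low counts, 49 of 3642 pairs were called, among them TRAV16N with TRAJ30 (adjusted p = 9.4e-09) and TRAV16N with TRAJ2 (log2 fold change 2.21, adjusted p = 0.0250). TRAJ2 took 0.389% and 0.690% of TRAV16N reads in WT, against 0.521% and 3.50% in Tet2/3 DKO, so this pair too rested on Tet2/3 DKO replicate 2. Without Tet2/3 DKO replicate 1, 18 pairs were called, including TRAV16N with TRAJ30 (adjusted p = 0.000845), but Tet2/3 DKO was then replicate 2 alone, assumed to vary as the WT libraries did. With DESeq2, 11 pairs were called and 0 of the family.

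The high TRAJ30 share came from 1 rearrangement. The CDR3 of the most abundant family clone of each library is printed because this one sets the TRAJ30 value, and it was not found elsewhere.
WT replicate 1, TRAV16N-var with TRAJ13: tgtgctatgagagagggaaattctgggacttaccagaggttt
WT replicate 2, TRAV16N-var with TRAJ27: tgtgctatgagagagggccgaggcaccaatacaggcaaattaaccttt
Tet2/3 DKO replicate 1, TRAV16N-ref with TRAJ17: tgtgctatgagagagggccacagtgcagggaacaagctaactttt
Tet2/3 DKO replicate 2, TRAV16N-var with TRAJ30: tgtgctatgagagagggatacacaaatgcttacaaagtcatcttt

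In Tet2/3 DKO replicate 2 this clone had 1274 reads, or 11.2% of that library's family reads (95% Wilson interval 10.6% to 11.8%). These CDR3 nucleotides were not found with TRAV16N and TRAJ30 in the other 3 libraries. Its rearrangement also had 39 deleted reads among 1402 (2.78%). Without it TRAJ30 took 2.68% of the TRAV16N reads of this library, and the deleted share of the family there was 12.2% in place of 11.03%. The top clones of the other libraries were much smaller. The clone of WT replicate 1 had 90 reads, with 21 deleted reads of the same rearrangement. That of WT replicate 2 had 137 reads with 20 deleted reads, and that of Tet2/3 DKO replicate 1 had 102 reads with 0 deleted reads. These were 1.65%, 2.05% and 1.85% of the family reads of their library.

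CDR3 length was close in all libraries. The read-weighted mean over in-frame clones was 14.4, 14.5, 14.5 and 14.7 amino acids in WT replicates 1 and 2 and Tet2/3 DKO replicates 1 and 2. The genotypes overlapped, with a difference of 0.125 amino acids (exact permutation p = 0.667). For TRAV16D-DV11 alone they did not, with 14.41 and 14.29 amino acids in WT, against 14.49 and 14.84 in Tet2/3 DKO (exact permutation p = 0.333, the smallest possible). Of 95 TRAV segments, 37.9% had both Tet2/3 DKO libraries above both WT libraries in this length. Counted by clones, TRAV16D-DV11 had 14.49 and 14.38 amino acids in WT, against 14.50 and 14.67 in Tet2/3 DKO. In Tet2/3 DKO replicate 2 a length of 17 took 18.6% of in-frame TRAV16D-type reads, against 2.12% to 3.21% in the other libraries. TRAV16N was longer than TRAV16D-DV11 in 1 of 4 libraries, with a mean difference of 0.0209 amino acids (SD 0.181, exact permutation p = 1). With each clone counted once, TRAV16N was longer than TRAV16D-DV11 in 3 of 4 libraries, by 0.0422 on average (SD 0.0820). The means by clones were 14.8 to 14.9 amino acids for TRAV16N-ref, 14.4 to 14.5 for TRAV16N-var and 14.4 to 14.7 for TRAV16D-type. The family as a whole had 14.5 to 14.6, and other TCRα clones had 13.4 in each library. By reads, lengths of 14 and 15 amino acids took 31.1% and 33.8% of in-frame family reads on average.

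A small set of chains was found in all 4 libraries. Of 2740 V, TRAJ and CDR3 amino acid combinations of the family, 65 (2.37%) were present in every library and 2212 (80.7%) in 1. For other TCRα chains 2.36% were in every library. Among the 65, 60 included clones of TRAV16N-var, 41 of TRAV16N-ref and 3 of TRAV16D-type. They held 16.6% and 18.1% of in-frame family reads in the WT libraries, against 17.8% and 11.9% in Tet2/3 DKO. The commonest nucleotide form of the CDR3 is given for the 5 most abundant, since these chains recurred in separate mice.
TRAV16N with TRAJ12, 15 codons: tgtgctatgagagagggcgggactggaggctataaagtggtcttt
TRAV16N with TRAJ27, 15 codons: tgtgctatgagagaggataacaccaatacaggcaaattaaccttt
TRAV16N with TRAJ31, 13 codons: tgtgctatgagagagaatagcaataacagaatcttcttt
TRAV16N with TRAJ21, 14 codons: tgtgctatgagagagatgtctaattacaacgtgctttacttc
TRAV16N with TRAJ27, 15 codons: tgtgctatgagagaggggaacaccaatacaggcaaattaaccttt

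The first of these, TRAV16N with TRAJ12, had 47, 64, 46 and 69 reads in WT replicates 1 and 2 and Tet2/3 DKO replicates 1 and 2. The second, with TRAJ27, had 20, 35, 65 and 33 reads in the same order. The third, with TRAJ31, had 40, 60, 26 and 27 reads. The fourth, with TRAJ21, had 28, 27, 24 and 65 reads, and the fifth, again with TRAJ27, had 15, 45, 18 and 55. Each of the 5 chains was written by 2 to 4 different nucleotide sequences.

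The genotypes overlapped in their usage of both copies. TRAV16N took 2.68% and 2.48% of TCRα reads in WT, against 2.36% and 3.29% in Tet2/3 DKO. TRAV16D-DV11 took 0.478% and 0.609% in WT, against 0.461% and 0.664% in Tet2/3 DKO. Tet2/3 DKO replicate 1 was the lowest and replicate 2 the highest of the 4 libraries for both copies. In edgeR's quasi-likelihood test over 97 TRAV segments the log2 fold change, Tet2/3 DKO over WT, was 0.13 (SE 0.19) for TRAV16N and 0.05 (SE 0.24) for TRAV16D-DV11, both with an adjusted p of 0.975. No segment was called (0.0% of 97), and 3 had an unadjusted p under 0.05. Without Tet2/3 DKO replicate 2 the direction turned for both copies (log2 fold change -0.13 and -0.24), and without Tet2/3 DKO replicate 1 the test, with 1 Tet2/3 DKO library assumed to vary as the WT libraries did, called 8 segments and 0 of the family. Without WT replicate 1 the value for TRAV16D-DV11 was -0.11, and with the 10 most abundant clones of each library left out that for TRAV16N was 0.032. By sequence type, TRAV16N-ref took 0.603% and 0.537% of reads in WT, below the 0.659% and 0.708% of Tet2/3 DKO, and did not overlap (exact permutation p = 0.333, the smallest possible; log2 fold change 0.26, SE 0.18, edgeR adjusted p = 0.979). By clones it overlapped, with 0.621% and 0.568% in WT, against 0.592% and 0.786% in Tet2/3 DKO. Of the 97 segments, 8 (8.25%) had both Tet2/3 DKO libraries above both WT libraries by reads. TRAV16N-var and TRAV16D-type overlapped between genotypes.

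**Figure D5:**
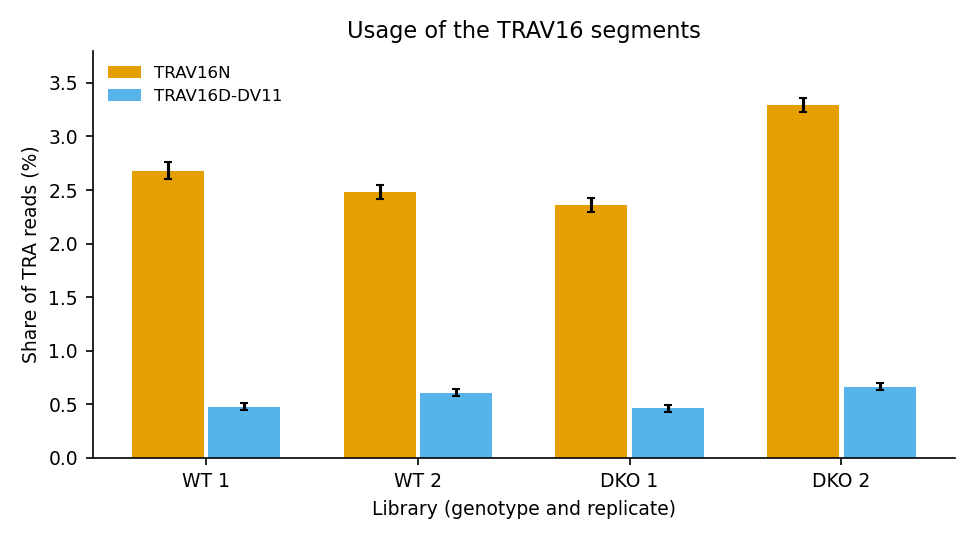
Share of TCRα reads (%) of TRAV16N and TRAV16D-DV11 in each library, with 95% Wilson intervals that cover counting error only. TRAV16N lies between 2.36% and 3.29% and TRAV16D-DV11 between 0.461% and 0.664%, with both extremes in Tet2/3 DKO.

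The family stood near the top of the TRAV segments by deleted share. Of 70 other segments with at least 1000 reads, 60 had under 1% of reads deleted and 2 were above the lower TRAV16 copy, and the median was 0.176%. The highest was TRAV9D-4, with at least 98.6% of reads deleted in each library and a main gap of 97 nt. The nearest in pattern over the 4 libraries was TRAV6-6, with 19.3% and 18.8% of reads deleted in WT, against 15.2% and 12.9% in Tet2/3 DKO. Its main gap was 124 nt long, from position 111, and made up 99.6% of its deleted reads. It was followed by TRAV6D-3 (4.67% to 10.2%) and TRAV6-3 (5.17% to 6.34%), both with a 124 nt gap from position 105. TRAV16 provided 22.9% and 21.9% of all deleted TCRα reads in WT, against 16.4% and 26.2% in Tet2/3 DKO. Outside the family 2.30% and 2.14% of TCRα reads were deleted in WT, against 2.05% and 1.28% in Tet2/3 DKO.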

How the data were processed

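Per the labels and the methods, cDNA was made from 20 ng of total RNA per library and sequenced on a MiSeq. Reads were trimmed by the authors (fastp 0.21.0), who then ran MiXCR (4.7.0) to build the clone tables; mm10 is the build named. Samples with the same group label were taken as biological replicates from the BR numbers of their titles. The deposited values used were read counts per clone, and the deposited fraction of reads per clone equalled the count share. The tables give no molecular identifiers, so reads are not independent molecules and Wilson intervals cover counting error only. TCRβ tables were not used here.

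The V part of each clone was compared with the commonest full-length sequence of its segment. A gap of at least 20 nt counted as deleted, and the search recovered 97.6% of 500 simulated deletions. Counts were tested with edgeR 4.0.16 (DESeq2 1.42.0 as an alternative) on features with at least 10 reads, adjusted over all features by Benjamini-Hochberg, with 0.05 as the threshold. In simulated data with 4-fold changes the fits recovered 100% of changed segments among 97, 100% of changed pairs among 3035 and 95% of changed deleted shares among 42. These simulations used a set spread between libraries, not the one of these data, and changed only features with many reads. They do not show how often such changes would be found here. Single values per library were compared by exact permutation. Copies were tested within libraries on CDR3 length and mean TRAJ number, which the choice of the family did not use; the planned test of their in-frame share was dropped because deleted clones set it.

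The members, lists and types were chosen with earlier results of these data known. Named items were the copies, the 5 largest TRAJ partners of the family and the 3 largest of each copy, the 5 commonest gaps, the top clone of each library, the 5 most abundant chains found in all libraries and the 3 segments nearest in deleted share. TRAJ partners of the types, TRAV9D-4 and pairs called under other settings were named after their values had been seen. Alternatives are given in the closing section.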

Additional observations from a re-analysis of the deposited data

How the results depend on the processing

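With 2 libraries a genotype, exact tests could not pass the threshold, so their settings show only direction. The median clone had 3 or 4 reads, so a second form could be missed, which was not tested, and TRAV16N-ref had few deleted clones. The family's deleted share as 1 value per library, types, 2 further deleted-share settings, and values without the largest clone, were chosen after seeing the data. The replicate numbers gave a block for usage, pairs and deleted shares. The labels do not state that libraries of different genotypes with the same number belong together. With the replicate block the log2 fold change was 0.11 and 0.04 for usage of TRAV16N and TRAV16D-DV11, and no member was called with it on reads. With the block and each clone counted once, 2 of the 22 segments tested were called. TRAV16N was the 1 member among them, with -0.66 for its deleted share (edgeR adjusted p = 0.00447). Replicate differences correlated between genotypes with r = 0.250 over 93 segments, a hint from the data only.

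Family members called stayed at 0 for usage in 14 of 14 settings. For pairs they were 0 in 10 of 12, with 2 without the filter on low counts and 0 to 1 when 1 library was left out. For the deleted share they were 0 in 13 of 15, with 1 when each clone counted once, where TRAV16N had -0.68 (adjusted p = 0.00755; range over its settings 0.00447 to 0.990). Leaving out 1 library, the log2 fold change of usage ran from -0.13 to 0.35 for TRAV16N and from -0.24 to 0.29 for TRAV16D-DV11 (-0.11 without WT replicate 1). That of the deleted share ran from -0.96 to -0.60 and from -1.11 to -0.70. The difference in mean TRAJ number ran from -0.304 to 0.664 (-0.304 without WT replicate 2 and -0.151 without Tet2/3 DKO replicate 1). The in-frame difference ran from 4.64 to 7.49 points and was -0.937 with intact clones only. The TRAV16N minus TRAV16D-DV11 difference in in-frame share was 4.40 points with each clone counted once, against 8.72. That in CDR3 length ran from -0.0610 (without WT replicate 2) to 0.0841. The family's deleted share kept its direction in 9 of 9 settings. The cause of the turns seen when 1 library was left out was not tested.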
